A study of Caenorhabditis elegans with 7 samples.

Results

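The large ribosomal subunit of the nematode Caenorhabditis elegans is described here through the transcripts of its protein genes, measured by RNA sequencing in early embryos. Members were all genes of the deposited count table whose symbol begins with rpl or rla followed by a number. There were 50 such genes among 46748, of which 47 were rpl genes and 3 were rla genes, which encode the stalk proteins. All 50 are annotated as protein coding, and all 50 had enough counts to be tested. They lie on chromosomes I (17 genes), II (9), III (9), IV (8), V (5) and X (2).

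Of the 7 libraries, 4 came from flp-21(ok889) mutant embryos, numbered 11, 22, 29 and 30 in the labels, and 3 from embryos of the wildtype strain N2, numbered 11, 22 and 30. Per the labels, embryos of both genotypes were at an early stage before gastrulation and were taken from mothers that held few eggs. The product of flp-21 is a neuropeptide of the FMRFamide-like family, and the series title concerns the provisioning of embryos by the mother. No label states that the libraries are of separate cultures, and the p-values therefore reflect only how these libraries vary, which may be technical.

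The ribosome is made of a small and a large subunit, each of them ribosomal RNA bound by proteins in fixed proportions. The large subunit joins amino acids, feeds the new chain through an exit tunnel and carries a stalk that draws in the elongation factors. In the early nematode embryo most ribosomes were made in the mother's germ line, and messages for ribosomal proteins are among the most abundant of growing cells. Where a role is named below, it is known mainly from yeast and mammals and is given as background.

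Total counts ran from 34164612 to 53620276 per library. The mutated gene could not check the labels, since flp-21 had 2, 1, 5 and 9 counts in mutant libraries 11, 22, 29 and 30, against 24, 2 and 6 in wildtype libraries 11, 22 and 30. All 12 markers of oocytes and early embryos were present in every library, with a summed level of 8095 to 10472 CPM (counts scaled to library size, with the trimmed mean method TMM between libraries) in the mutant, against 6248 to 8985 CPM in wildtype. Of these 12, 3 fell, namely egg-1, cbd-1 and puf-3, with log2 fold changes of -4.69, -4.39 and -2.01. Another 2 rose, glp-1 and mex-6, at 1.64 and 1.13. Markers of other tissues were also found. Sperm markers fell in 14 of 15 tested cases and summed to 47.3 to 111 CPM in the mutant, against 2107 to 3285 CPM in wildtype. The symbol ssp-9 has duplicate rows, each of which is in that count and in the sums, and spe-38 was not tested. Adult intestine markers fell in 12 of 12 and summed to 1.22 to 1003 CPM against 5772 to 51911 CPM. Body wall muscle markers fell in 9 of 9 and summed to 3.14 to 110.3 CPM against 850.5 to 3873 CPM. Cuticle markers fell in 3 of the 4 tested and summed to 0.511 to 202 CPM against 784 to 7035 CPM, and 6 of the 8 listed were at 0 counts in mutant library 11. Of 8 early zygotic genes 0 passed in edgeR, 0 at an unadjusted p, and 1 in DESeq2, which rose. Their sums were 90.9, 97.1, 98.1 and 148 CPM in mutant libraries 11, 22, 29 and 30, against 41.096, 1.88 and 108 CPM in wildtype libraries 11, 22 and 30, so wildtype library 22 stood apart. Of 5 neuronal markers 1 fell. Ribosomal RNA genes took 2.40% to 3.72% of mutant counts and 3.99% to 13.3% of wildtype counts. In bulk samples, fewer cells of a type and less RNA per cell cannot be told apart.

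Large-subunit transcripts were lower in the flp-21 mutant embryos for nearly every member. With edgeR's quasi-likelihood test, adjusted over all 13035 genes tested, 47 of the 50 fell, 0 rose and 3 did not pass. Among all genes tested 38.4% passed, with 29.4% lower and 9.01% higher. No member rose at an unadjusted p of 0.05 or in DESeq2 either, the count being 0 in both. The median log2 fold change of the members was -3.04, with quartiles at -3.48 and -2.40, against -0.21 over all genes tested. The value lay below -2 for 43 members and 27.8% of all genes, and below -3 for 26 members and 21.2% of all genes. The libraries of the genotypes did not overlap for the same number of members, 47, all of them lower in the mutant, whereas 30.5% of all tested genes had such a gap in that direction. The rpl-41.1, rpl-41.2 and rpl-24.2 genes were the 3 that did not pass and the 3 whose libraries overlapped.

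**Figure D1:**
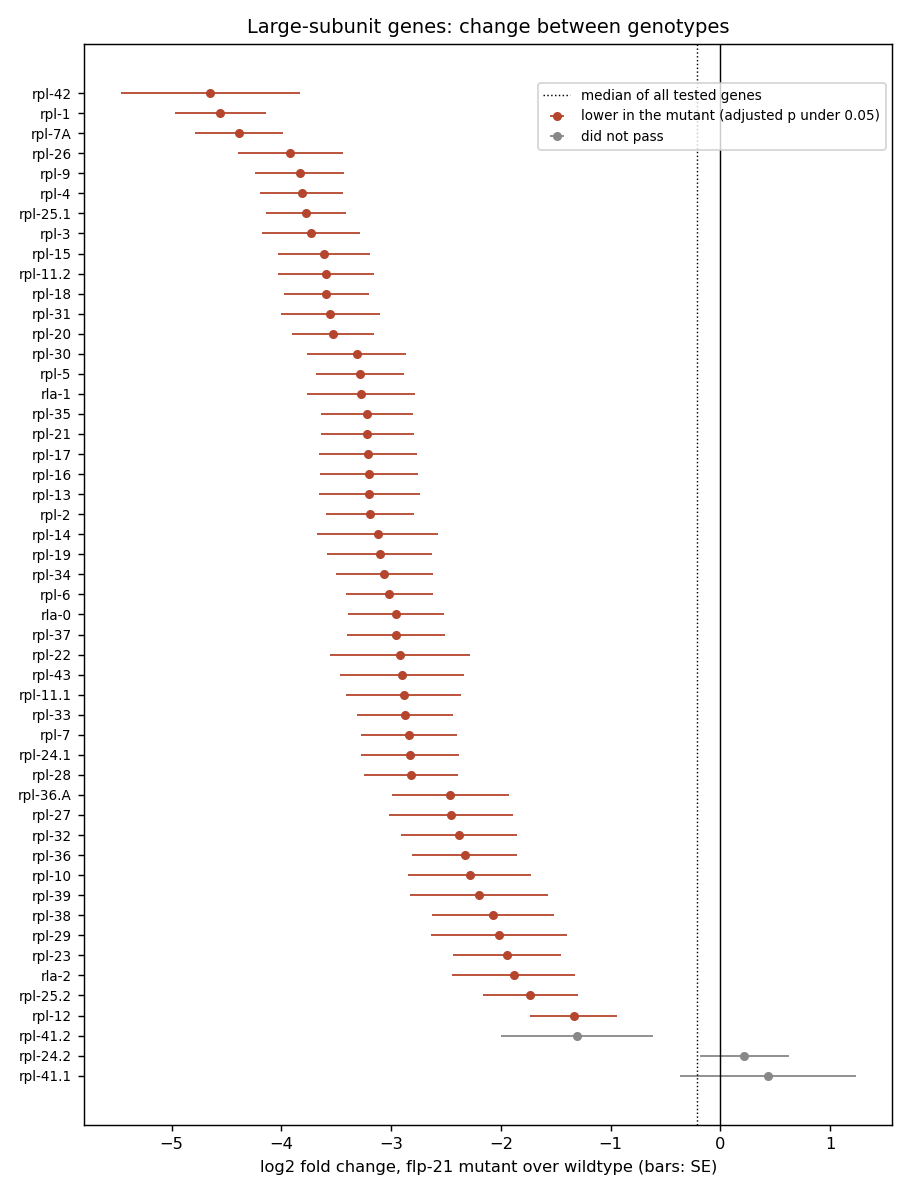
Log2 fold change of each of the 50 large-subunit genes, flp-21 mutant (n = 4) over wildtype (n = 3), with the standard error as a bar, sorted by value. The 47 genes in red passed and run from -4.65 for rpl-42 to -1.34 for rpl-12, the 3 in grey did not pass, and the dotted line is the median of all tested genes at -0.21.

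Summed over the 50 genes, the level was 7252, 6409, 5905 and 18797 CPM in mutant libraries 11, 22, 29 and 30. In wildtype libraries 11, 22 and 30 it was 61526, 78644 and 62106 CPM. The means were 9591 ± 6163 CPM (SD, n = 4) and 67425 ± 9720.02 CPM (SD, n = 3), a 7.03-fold difference, and the highest mutant library stayed below the lowest wildtype library. As a share of all counts, without any scaling, the genes took 0.872%, 0.667%, 0.630% and 1.84% in the mutant libraries, against 6.43%, 7.82% and 4.55% in wildtype. The 95% Wilson intervals of these shares are at most 0.00899 percentage points to either side and cover counting error only.

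Mutant library 30 had the highest mutant level for 49 of the 50 genes, and wildtype library 22, which had the fewest early zygotic transcripts, the highest wildtype level for 39. Spread was wider in the mutant, with a median coefficient of variation of 56.5% against 18.2% in wildtype. Intestine markers summed to 1.22, 1003, 922 and 9.09 CPM in mutant libraries 11, 22, 29 and 30, beside large-subunit sums of 7252, 6409, 5905 and 18797 CPM. Library 30 also had the highest sperm markers of its group, at 111 CPM summed. In wildtype, library 30 held 5772 CPM of intestine markers against 46659 and 51911 CPM in libraries 11 and 22. Its large-subunit sum lay between theirs after TMM scaling, with a factor of 0.732 for that library, but its share of all counts was the lowest of the group, also without ribosomal RNA (5.24% against 6.88% and 8.15%). The part of other tissues in the difference between genotypes, and that of sperm within the mutant group, was not tested.

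How many genes passed depended on the libraries used. With 1 library left out 41 to 48 genes fell and 0 rose, the lowest number being without wildtype library 22, where 3406 of all 13514 genes tested fell. Without mutant library 30 the fold change of 14 members, on the linear scale, moved by over 1.5 times, downward in each. The median log2 fold change was then -3.58. In alternatives chosen after seeing the data, 35 fell without mutant libraries 22 and 29, which are the closest pair of libraries, as did 2953 of all 13994 genes tested. With wildtype library 30 as the sole wildtype library 31 fell, as did 1906 of all 13700 genes tested, and that fit holds no spread between wildtype libraries.

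The small subunit changed alongside. Of 31 rps genes 30 fell and 0 rose, with a median log2 fold change of -2.94. In sum they reached 6327 ± 4041 CPM in the mutant, against 46649 ± 6442 CPM in wildtype. The ratio of large-subunit to small-subunit CPM, which does not depend on the scaling between libraries, was 1.52, 1.49, 1.52 and 1.52 in the mutant libraries, against 1.47, 1.46 and 1.41 in wildtype. All 7 ratios thus fell within a narrow range, with the mutant libraries slightly above the wildtype ones. The large-subunit sums include rpl-41.1 and rpl-41.2, which did not pass. Together this pair held 846, 356, 353 and 2729 CPM in mutant libraries 11, 22, 29 and 30. In wildtype libraries 11, 22 and 30 it held 1733, 2052 and 2306 CPM. With the pair left out of the large-subunit sums, the ratios of the genotypes overlap.

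Proteins of the mitochondrial large subunit are made from separate nuclear genes and serve the ribosome inside mitochondria. Of 40 such mrpl genes 4 fell and 0 rose, beside 29.4% lower and 9.01% higher over all genes tested. Their median log2 fold change was -0.14. Large-subunit CPM exceeded mrpl CPM 4.53-, 5.32-, 4.87- and 7.03-fold in the mutant libraries, against 44.6-, 39.6- and 30.6-fold in wildtype, so the balance of cytosolic to mitochondrial messages had no overlap between genotypes.

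Genes for factors that assemble or use the large subunit were counted in the same way, and no difference between these lists and the members was tested. Over all genes tested, 29.4% fell and 9.01% rose. Of 9 assembly factor genes listed, 7 were matched and tested, 0 passed in edgeR, at an unadjusted p of 0.05 or in DESeq2, and their median was 0.18. They included nog-1, a GTPase of the maturing subunit, with a mean of 217 CPM in the mutant, against 227 CPM in wildtype, and a log2 fold change of -0.07 (SE 0.31). The anti-association factor gene eif-6 had 161 ± 30.03 and 286 ± 177 CPM, with a log2 fold change of -0.83 (edgeR adjusted p = 0.148). Of 6 elongation factor genes 2 fell, and the log2 fold changes of all 6 lay between -1.82 and -0.43. The translocase gene eef-2 had 2438 ± 479.9 CPM in the mutant, against 6553 ± 1528 CPM in wildtype (edgeR adjusted p = 0.0092). For eef-1A.2, which encodes the factor that delivers transfer RNA, the means were 109 ± 32.7 and 385 ± 117 CPM (edgeR adjusted p = 0.00349). The more abundant eef-1A.1 had 14396 ± 2923 CPM in the mutant, against 21065 ± 8426 CPM in wildtype and did not pass.

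**Figure D2:**
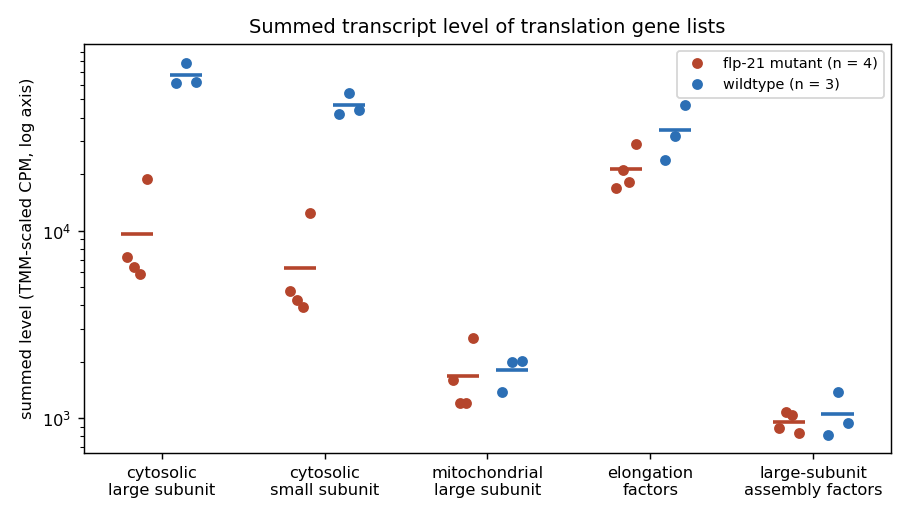
Summed level of 5 lists of translation genes in each library, in TMM-scaled CPM on a log axis, with mutant libraries in red (n = 4), wildtype libraries in blue (n = 3) and the group means as lines. Cytosolic large-subunit sums lay at 5905 to 18797 CPM in the mutant, against 61526 to 78644 CPM in wildtype. Sums of mitochondrial proteins, elongation factors and assembly factors overlapped.

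The stalk proteins draw elongation factors to the ribosome. Their anchor is P0, encoded by rla-0 (WBGene00004408, chromosome I from 10567894 to 10569019 in build WBcel235). Its level was 321, 429, 374 and 914 CPM in mutant libraries 11, 22, 29 and 30, against 3748, 4609 and 3504 CPM in wildtype libraries 11, 22 and 30. Every mutant library lay below every wildtype one, and the log2 fold change was -2.96 (SE 0.44, edgeR adjusted p = 8.85e-04). The gene rla-1 (chromosome I from 2069041 to 2069587), which encodes the small acidic protein P1, had 96.2, 109, 99.8 and 302 CPM in the mutant, against 1419, 1810.4 and 1175 CPM in wildtype. It fell by 3.27 on the log2 scale (SE 0.49, edgeR adjusted p = 9.20e-04).

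The partner of P1 is P2, encoded by rla-2 (chromosome IV from 13369424 to 13370285), and its fall was smaller. The levels of rla-2 were 133, 110.0, 85.0 and 436 CPM in the mutant, against 586, 649 and 882 CPM in wildtype. The groups came close, at 436 CPM in mutant library 30 and 586 CPM in wildtype library 11, and the log2 fold change of -1.88 (SE 0.56, edgeR adjusted p = 0.0233) lost its call without any 1 of the other 6 libraries and kept it without mutant library 30, at -2.69 (edgeR adjusted p = 8.96e-04). Whether rla-1 and rla-2 differ in their change was not tested. At the base of the stalk sits the protein of rpl-12 (chromosome IV from 13239588 to 13240651), which had the smallest fall of all members that passed. It had 459, 434, 404 and 963 CPM in the mutant, against 1213, 1659 and 1411 CPM in wildtype, and its log2 fold change was -1.34 (SE 0.39, edgeR adjusted p = 0.0224). The call of rpl-12 was lost when mutant library 11, 22 or 29 or wildtype library 22 was left out. Its share of large-subunit CPM averaged 6.27% in the mutant, against 2.12% in wildtype.

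The opposite arm of the subunit, the L1 stalk, helps spent transfer RNA to leave. Its protein is encoded by rpl-1 (WBGene00004412, chromosome I from 2875395 to 2876324), which had the smallest p-value of all members. The levels were 50.9, 82.1, 72.0 and 127 CPM in the mutant, against 1857, 2283 and 1715 CPM in wildtype. The genotypes stood far apart, with a log2 fold change of -4.55 (SE 0.41, edgeR adjusted p = 1.11e-04) that ran from -4.84 to -4.16 over 18 alternatives. Its share of large-subunit CPM was 0.970% in the mutant, against 2.89% in wildtype.

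Next by p-value came rpl-7A (chromosome IV from 4389135 to 4390631), a protein of the body of the subunit, with 47.3, 71.5, 56.2 and 101 CPM in the mutant, against 1311, 1844 and 1169.6 CPM in wildtype. It fell 20.9-fold by the ratio of group means. The gene rpl-9 (chromosome III from 7572105 to 7572831), whose protein lies near the base of the stalk, had 56.5, 68.8, 67.3 and 119.7 CPM in the mutant, against 962, 1513 and 860.2 CPM in wildtype, a ratio of 14.2. In both genes the lowest wildtype library, number 30, stayed far above the highest mutant library, which was also number 30.

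A separate small particle of the subunit is 5S ribosomal RNA with the proteins of rpl-5 and the rpl-11 genes. The level of rpl-5 (chromosome II from 8569927 to 8571050) was 168, 212, 179 and 371 CPM in the mutant, against 1941, 2893 and 1948 CPM in wildtype. It fell by 3.28 on the log2 scale (SE 0.40, edgeR adjusted p = 4.32e-04). Its partner protein is encoded by a pair of genes, rpl-11.1 on chromosome V (3585315 to 3586064) and rpl-11.2 on chromosome X (2241756 to 2242618). The levels of rpl-11.1 were 159, 106, 99.7 and 395 CPM in the mutant, against 1221, 1782 and 1201 CPM in wildtype. Those of rpl-11.2 were 20.8, 27.8, 24.4 and 56.2 CPM in the mutant, against 480.0, 263 and 426 CPM in wildtype. Both fell, with log2 fold changes of -2.88 and -3.59 (SE 0.52 and 0.44), and wildtype library 22, the highest for rpl-11.1, was the lowest for rpl-11.2. The call of rpl-11.1 was lost with wildtype library 30 alone (edgeR adjusted p = 0.0589), and its log2 fold change without mutant library 30 was -3.53.

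Proteins close to the catalytic centre, named here after their values were seen, are those of rpl-2, rpl-3 and rpl-10. The gene rpl-3 (chromosome III from 3867852 to 3869546) had 175, 247, 213 and 484 CPM in the mutant, against 3403, 4719 and 3031 CPM in wildtype. The gene rpl-2 (chromosome V from 20479689 to 20480846) had 169, 211, 198 and 376 CPM in the mutant, against 2157, 2767 and 1629.6 CPM in wildtype. For rpl-10 (chromosome II from 8143863 to 8144673), whose protein is among the last to join, the levels were 416, 312, 281 and 1239 CPM in the mutant, against 1919.9, 2680.5 and 3607 CPM in wildtype. All of them fell, with log2 fold changes of -3.73 for rpl-3, -3.19 for rpl-2 and -2.28 for rpl-10. Without mutant library 30 the value of rpl-10 was -3.03. The rpl-10 call was lost without mutant libraries 22 and 29 and with wildtype library 30 alone.

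The exit tunnel is lined by the proteins of rpl-4, rpl-17 and rpl-39. The gene rpl-4 (chromosome I from 4645636 to 4646963) had 173, 267, 218 and 340.1 CPM in the mutant, against 3174, 4337 and 3021 CPM in wildtype, and fell by 3.82 on the log2 scale (SE 0.38, edgeR adjusted p = 1.71e-04). The gene rpl-17 (chromosome I from 1156577 to 1157462) had 141, 163, 142.2 and 391 CPM against 1726, 2184 and 1892 CPM, a log2 fold change of -3.21. The third, rpl-39 (chromosome V from 7775738 to 7776086), lies 17278 bases from the mutated flp-21 gene and is the member nearest to it. It had 58.5, 26.1, 25.17 and 165 CPM in the mutant, against 314, 362 and 272 CPM in wildtype. The log2 fold change of -2.20 (SE 0.63, edgeR adjusted p = 0.0197) was among the smaller ones, and its call was lost when mutant library 11 or wildtype library 11 or 22 was left out. Without mutant library 30 the value of rpl-39 was -3.11. The other 4 members on chromosome V, at 4207300 bases or more from flp-21, had log2 fold changes from -3.19 to -2.07.

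Around the mouth of the tunnel lie the proteins of rpl-19, rpl-22, rpl-26, rpl-31, rpl-35 and the rpl-25 genes, where chaperones and the signal recognition particle dock. All 7 genes fell, with log2 fold changes from -3.92 for rpl-26 to -1.73 for rpl-25.2. The gene rpl-26, named after its values were seen, had 45.6, 46.2, 40.4 and 123 CPM in the mutant, against 921, 1149 and 827 CPM in wildtype. Another of the group, rpl-22, had 87.8, 52.6, 52.1 and 303 CPM in the mutant, against 752, 857 and 1209 CPM in wildtype, where library 30 was the highest and not the lowest. Its log2 fold change was -2.92, and -3.87 without mutant library 30. The remaining 24 proteins of the body of the subunit, rpl-7A and rpl-9 included, were lower in 24 of 24 cases, with log2 fold changes from -4.38 for rpl-7A to -1.95 for rpl-23, which stood at -2.56 without mutant library 30. Of these 24, rpl-29 lost its call without 6 of the 7 libraries, 1 at a time, and kept it without mutant library 30, while rpl-38 lost it without wildtype library 11 or 22. Without mutant library 30 their values were -2.95 and -2.87, against -2.02 and -2.07 with it.

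Levels of different genes were compared per kilobase of exon. In wildtype the median member stood at 2106 CPM per kb, with quartiles at 1450.0 and 2591 CPM per kb. In the mutant the median was 244 CPM per kb, with quartiles at 170 and 387 CPM per kb. The highest level per kilobase in both genotypes was that of rpl-41.2, at 6031 ± 669 CPM per kb in wildtype and 2441 ± 2643 CPM per kb in the mutant. The order of genes was kept in part, with a Spearman rho of 0.53 between the genotype means over the 50 genes, which share libraries and are not independent. The gene rpl-1 stood 17th in wildtype and 45th in the mutant, rpl-7A 35th and 47th, and rpl-12 34th and 6th.

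At the low end stood rpl-42 (chromosome II from 11092749 to 11093854), which was picked out after its values were seen. This gene is a member by its symbol, and its role could not be checked. It had 14, 2, 3 and 19 counts in mutant libraries 11, 22, 29 and 30, against 169, 232 and 131 counts in wildtype libraries 11, 22 and 30, and 9.96 ± 2.96 CPM per kb in wildtype. Its neighbour at a distance of 2716 bases, rpl-36.A, held 1429 ± 676 CPM per kb. The log2 fold change of rpl-42 was the largest of all members at -4.65, with the widest error (SE 0.81, edgeR adjusted p = 0.0019).

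**Figure D3:**
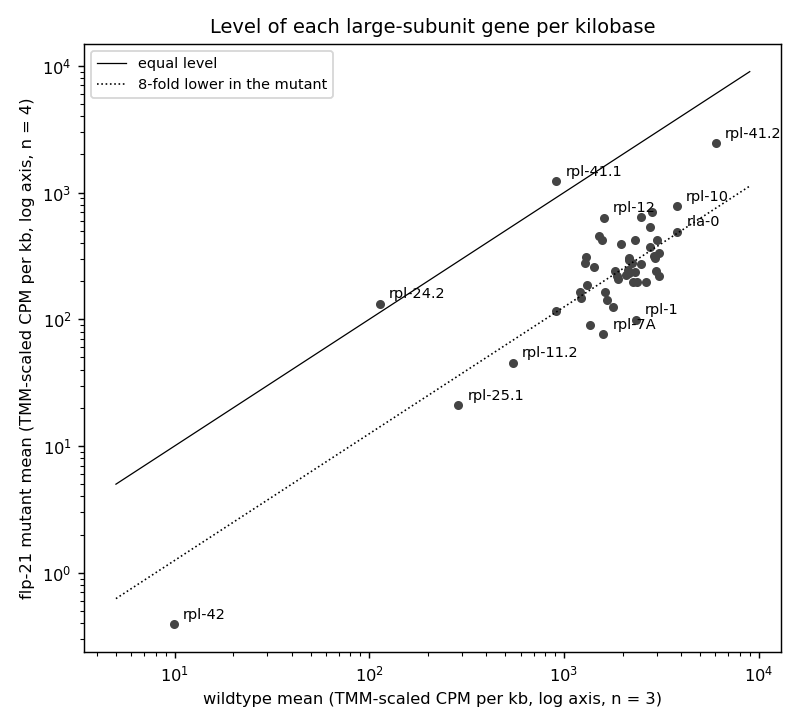
Mean level of each large-subunit gene in the flp-21 mutant (n = 4) against wildtype (n = 3), in TMM-scaled CPM per kilobase of exon on log axes, with lines for equal level and for an 8-fold lower level in the mutant. Most genes gather near the dotted line, rpl-41.1 and rpl-24.2 lie near equality, and rpl-42 stands apart at 9.96 CPM per kb in wildtype.

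The size of the fall was related to the length of the gene. Over the 50 members the Spearman rho of log2 fold change with exon length was -0.49, so that shorter genes fell less, and it was -0.44 over the 47 members that passed. Over 31 small-subunit genes the rho was -0.34. Over all genes tested the relation ran the other way, at 0.20, and over 2173 other genes with a mean of at least 100 CPM it was 0.37. These are descriptions across genes that share the same libraries.

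By length class, the 8 members under 400 bases had a median log2 fold change of -2.14 and 6 of them fell. The 15 members from 400 to under 600 bases had a median of -2.90, the 18 from 600 to under 800 bases -3.21 and the 9 of 800 bases or more -3.28. The 8 shortest took 19.7%, 10.5%, 11.6% and 22.4% of large-subunit CPM in mutant libraries 11, 22, 29 and 30, against 8.13%, 7.28% and 8.20% in wildtype libraries 11, 22 and 30. Of this, rpl-41.1 and rpl-41.2 held 846 of 1428, 356 of 675, 353 of 682 and 2729 of 4217 CPM in those mutant libraries. In wildtype the pair held 1733 of 5004, 2052 of 5723 and 2306 of 5092 CPM. Without the pair the share in mutant library 22 lies within the wildtype range. With all 8 counted, mutant libraries 11 and 30 held the highest shares of short members and libraries 22 and 29 lay between them and wildtype. What in the embryos or in the making of the libraries goes with this was not tested.

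**Figure D4:**
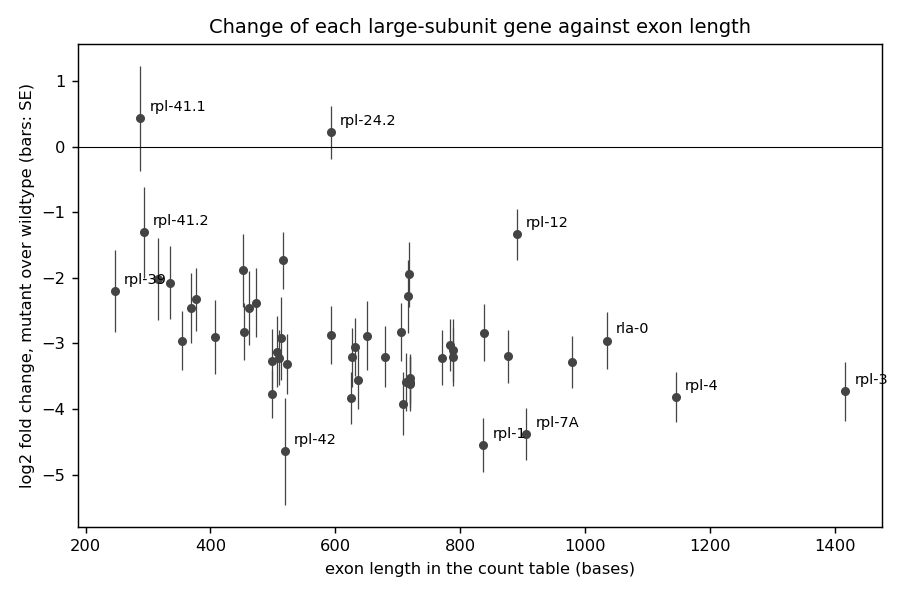
Log2 fold change of each of the 50 large-subunit genes, mutant over wildtype, against its exon length in bases, with the standard error as a bar. Genes under 400 bases have a median of -2.14 and those of 800 bases or more one of -3.28, with rpl-12 and rpl-24.2 above the trend.

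Numbered pairs of genes allow a comparison within each library that no scaling affects. There are 4 such pairs, and each was tested on the log2 ratio of counts with a two-sided exact permutation test over the 35 ways to assign the genotypes, whose smallest possible p is 0.0286, with adjustment over the 4 pairs. The balance of rpl-11.1 to rpl-11.2 was 2.93, 1.93, 2.03 and 2.81 in mutant libraries 11, 22, 29 and 30, against 1.35, 2.76 and 1.496 in wildtype libraries 11, 22 and 30. These values overlap, and the mean difference of 0.56 did not pass (exact permutation p = 0.314, adjusted 0.314), with values from 0.30 to 1.00 when 1 library was left out.

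The protein of the rpl-25 genes guards the tunnel exit. Of the pair, rpl-25.1 lies on chromosome X (4715178 to 4715801) and rpl-25.2 on chromosome I (8329061 to 8329684). The levels of rpl-25.1 were 7.62, 12.9, 9.94 and 11.5 CPM in the mutant, against 158, 97.7 and 173 CPM in wildtype, a log2 fold change of -3.77 (SE 0.36, edgeR adjusted p = 1.48e-04). Those of rpl-25.2 were 232, 163, 149 and 397 CPM in the mutant, against 747, 1081 and 516 CPM in wildtype, with -1.73 (SE 0.43, edgeR adjusted p = 0.0109), a call lost without wildtype library 22. Both genes fell, and rpl-25.2 was the more abundant in all 7 libraries.

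The log2 ratio of rpl-25.1 to rpl-25.2 was -4.92, -3.66, -3.91 and -5.11 in the mutant, against -2.24, -3.47 and -1.57 in wildtype. The mutant mean of -4.40 ± 0.72 (SD, n = 4) and the wildtype mean of -2.43 ± 0.96 (SD, n = 3) gave a difference of -1.97, which passed (exact permutation p = 0.0286, adjusted 0.0381). The groups stood apart by little, at -3.66 in mutant library 22 and -3.47 in wildtype library 22. The share of rpl-25.1 in the counts of the pair was 4.89% ± 2.23 (SD, n = 4) in the mutant, against 16.97% ± 8.45 (SD, n = 3) in wildtype.

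The genes rpl-24.1 and rpl-24.2 share a number but not a role. The protein of rpl-24.1 (chromosome I from 4584960 to 4586183) is part of the finished subunit. The protein of rpl-24.2 (chromosome I from 9669415 to 9670141) is the counterpart of yeast Rlp24, an assembly factor that holds the site on the immature subunit. The levels of rpl-24.1 were 99.8, 88.7, 88.5 and 246 CPM in the mutant, against 917, 1086 and 779 CPM in wildtype, a log2 fold change of -2.83 (SE 0.45, edgeR adjusted p = 0.00119).

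For rpl-24.2 the levels were 68.5, 53.5, 54.9 and 137 CPM in the mutant, against 51.7, 70.5 and 79.9 CPM in wildtype. The genotypes overlapped and its log2 fold change of 0.22 (SE 0.41, edgeR adjusted p = 0.714) did not pass. It turned to -0.20 without mutant library 30 and to -0.01 with a filter of 5 CPM. The log2 ratio of rpl-24.1 to rpl-24.2 was 0.54, 0.73, 0.69 and 0.85 in the mutant, against 4.15, 3.94 and 3.29 in wildtype. The mean difference of -3.09 passed (exact permutation p = 0.0286, adjusted 0.0381) with a wide gap between the groups.

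The rpl-41 genes encode a very short peptide of the subunit and lie side by side on chromosome I, rpl-41.1 from 4789233 to 4789592 and rpl-41.2 from 4790290 to 4790653, with 697 bases between them. How reads divide between such close copies is uncertain. The levels of rpl-41.1 were 285, 132, 129 and 876 CPM in the mutant, against 157, 84.6 and 549 CPM in wildtype, which overlap widely, with a log2 fold change of 0.43 (SE 0.80, edgeR adjusted p = 0.711). Those of rpl-41.2 were 561, 223, 224 and 1852 CPM in the mutant, against 1576, 1968 and 1758 CPM in wildtype, with -1.30 (SE 0.69, edgeR adjusted p = 0.169). Mutant library 30 alone reached the wildtype range of rpl-41.2. Without that library rpl-41.2 passed at -2.40 (edgeR adjusted p = 0.00369) and the value of rpl-41.1 turned to -0.54. Without wildtype library 30, in turn, rpl-41.1 stood at 1.69 (edgeR adjusted p = 0.123).

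The log2 ratio of rpl-41.1 to rpl-41.2 was -0.98, -0.76, -0.80 and -1.08 in the mutant, against -3.33, -4.54 and -1.68 in wildtype. The mutant libraries were close to each other and lay above all wildtype libraries, with a mean difference of 2.28 (exact permutation p = 0.0286, adjusted 0.0381). The difference was 1.599 without wildtype library 22 and 3.03 without wildtype library 30.

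**Figure D5:**
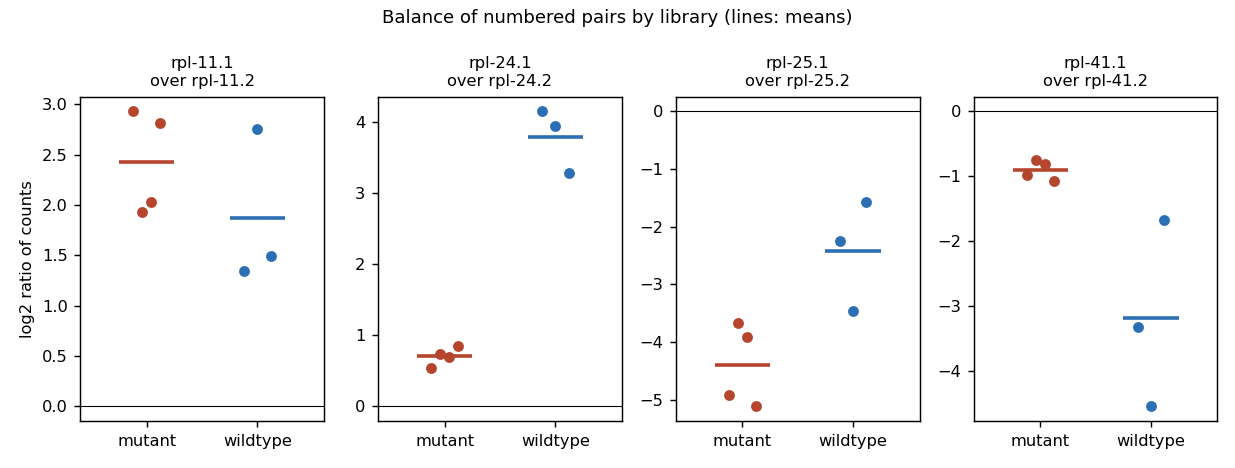
Log2 ratio of the counts of the genes of each numbered pair, by library, in flp-21 mutant (red, n = 4) and wildtype (blue, n = 3), with lines at the group means. Mutant and wildtype libraries overlap for rpl-11 and stand apart for rpl-24, rpl-25 and rpl-41, with mean differences of -3.09, -1.97 and 2.28.

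The authors' deposited table of their own comparison lists 46 of the 50 members, all 46 lower in the mutant, with a median log2 fold change of -3.08 among them. The members it does not list are rpl-12, rpl-24.2, rpl-41.1 and rpl-41.2, and the smallest absolute log2 fold change among all 3791 genes of the authors' deposited table is 1.5. For rpl-1 the authors' deposited table gives a log2 fold change of -4.51.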

How the data were processed

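The deposited count table holds unnormalized read counts of 46748 genes in 7 libraries. Per the file headers, they were made with featureCounts 1.6.4 over exons, with no option for strand, so reads of overlapping genes cannot be told apart. Exons of 14 members overlap another gene, by 67 bases at most. Per the submitters' processing notes, BWA, DESeq2 and build WBcel235 were used. BWA does not split reads over introns, so reads across junctions can go uncounted. The authors' second deposited file is their own comparison, with log2 fold changes, p-values, a score (the test statistic) and a mean signal (counts divided by size factors), of which only log2 fold changes are given.

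Symbols came from the Ensembl release 115 annotation and a table of gene names. Counts were tested with edgeR 4.0.16 in R 4.3.3 (quasi-likelihood F-test, robust, TMM, filterByExpr, genotype as the only term), with Benjamini-Hochberg adjustment over 13035 genes and a threshold of 0.05. The SE is the log2 fold change over the root of F. Level ratios used 0.5 count as pseudocount. Exon length is that of the count table. The fit was tried on simulated counts with few changed genes, as many higher as lower, and a common dispersion. That setting does not cover data where most calls are lower, as here. Genes that did not pass are not shown to be equal.

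Alternatives covered scaling, DESeq2 1.42.0, filters, a block by label number, removal of ribosomal RNA and single libraries. No pair of libraries agreed within sampling noise (chi-square per degree of freedom of at least 22.9). The members and lists were chosen with earlier results of these data known. The naming rule takes the stalk genes, numbered pairs, 5S and tunnel proteins, the 5 smallest p-values, the 5 smallest changes and those that did not pass, and rpl-40, which has no row under that symbol. Promoter and protein sequences were not used here.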

Additional observations from a re-analysis of the deposited data

Results flagged for a closer look

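In the group of 4 mutant libraries, library 30 stood far above the others for the summed level of large-subunit genes, its gap to the next library being 0.896 of the whole range. It was 0.898 for the small-subunit genes, 0.878 for the sperm markers and 0.874 for the early zygotic genes, with library 30 again the highest. The same held for several single genes, with a gap of 0.94 of the range for rla-1, 0.931 for rpl-26, 0.928 for rpl-24.1, 0.914 for rpl-17, 0.902 for rpl-12, 0.862 for rla-2, 0.859 for rpl-10 and 0.858 for rpl-22. Over all members, 22 of 50 passed the 95% critical value of Dixon's test for 4 samples. Chance alone passes about 1 in 20 such groups, and the members share their libraries, so these are not separate events. Without mutant library 30, 48 members fell in edgeR, as did 3774 of all 12815 genes tested.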

How the results depend on the processing

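Over other scalings, DESeq2, no filter, removal of ribosomal RNA and scaling factors computed without ribosomal protein genes, 47 members fell and 0 rose. With a filter of 5 CPM 46 fell, since rpl-42 was not tested. With 1 library left out 41 to 48 fell, and the median log2 fold change ran from -3.58 to -2.82. With wildtype library 30 alone, 31 fell. Over all genes, the median change was -0.21 under TMM, -0.42 under upper-quartile scaling and 0.01 where only library size was used, and 76.5%, 84.5% and 67.5% of calls were lower. The 3829 lower and 1175 higher genes of 13035 tested became 1564 and 505 of 7695 with the filter of 5 CPM. Without mutant libraries 22 and 29 they were 2953 and 339 of 13994. Leaving out 1 library, the value of rpl-24.2 ran from -0.20 (without mutant library 30) to 0.48 and that of rpl-41.1 from -0.54 (without mutant library 30) to 1.69. With the filter of 5 CPM rpl-24.2 stood at -0.010, and with wildtype library 30 alone rpl-41.1 stood at -0.40. The cause was not tested. Of 342 values of 19 named genes, 314 kept direction and side of the threshold, 23 lost the call, 1 gained it and 4 reversed.

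The number in the label as a replicate block gave 47 members lower and a median of -3.04. Deviations of same-numbered libraries correlated at -0.15, 0.09 and 0.49 for numbers 11, 22 and 30, and the main fit did not pair libraries. Whether the libraries numbered 30 share more than the number was not tested. In these deviations from the genotype means, wildtype libraries 11 and 22 correlated best with mutant libraries 29 and 11, at 0.44 and 0.14. Wildtype library 30 did so with mutant library 30. Within the numbers, the paralog differences were 0.69, -3.09, -2.14 and 2.24 for rpl-11, rpl-24, rpl-25 and rpl-41. Leaving out 1 library they ran from 0.30 to 1.00, -3.34 to -2.91, -2.49 to -1.55 and 1.599 to 3.03, a design too small to test at 0.05. A pseudocount of 5 counts changed no call. Depth limits rpl-42, which had 2 to 19 counts in the mutant libraries.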
